A study of Homo sapiens with 8 samples.

Results

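The 30 genes described here encode cholesterol synthesis enzymes, the SREBP system that sets their transcription, and liver X receptors (LXRs) with sterol efflux genes. They were listed by name for their known roles, with earlier results of these data known. All 30 were found among the 18656 gene symbols of the expression table, and all 30 passed the filter of 1 TPM (a transcript level normalised for gene length and library total) or more in at least 2 libraries, as did 11894 genes in all. The cells were SW480, an established human colorectal cancer line, sequenced as total RNA after ribosomal RNA removal. Small interfering RNA (siRNA) was delivered by lipid transfection. Cells given siRNA against TCF7L2 were taken at 24, 48 and 72 h, and cells given a negative-control siRNA are labelled 0 h, with 2 libraries in each of the 4 groups. The control exists at 0 h alone, so silencing cannot be told apart from time since transfection, and the 3 comparisons with it share their controls. The labels do not call the replicates separate cultures, so the p-values cover the spread of these libraries alone, which may be technical.

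Cholesterol is built from acetyl-CoA through mevalonate, the isoprenoids, squalene and lanosterol. When sterols in the endoplasmic reticulum are low, SCAP escorts the SREBP precursors to the Golgi, where they are cut and released to switch on the synthesis genes. When sterols are high, INSIG proteins hold SCAP back, and oxysterols activate LXRs, which turn on genes for sterol export. TCF7L2 encodes a transcription factor that acts with beta-catenin in the Wnt pathway, which is constitutively active in most colorectal cancers.

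The listed genes summed to between 352455.7 TPM, in the second 72 h library, and 485601.5 TPM, so each library was rescaled by a median-ratio factor. The factors were 0.798 for that library and 0.983 to 1.064 for the others. Levels below are scaled TPM, and changes are log2 differences of scaled TPM + 1 with their standard error (SE). A gene was called at an adjusted p under 0.05 (limma, Benjamini-Hochberg over 11894 genes). On TPM as deposited the median of all genes stood at -0.19 at 72 h against 0 h, and after scaling at 0.01. TCF7L2 itself had 6.50 and 7.02 scaled TPM at 0 h, 5.84 and 5.14 after 24 h, 4.70 and 3.85 after 48 h and lastly 3.96 and 4.42 after 72 h. It fell by 0.58 ± 0.11 at 72 h (adjusted p = 0.00207) and did not pass at 24 h (-0.26 ± 0.11, adjusted p = 0.289). The epithelial keratin genes KRT8, KRT18 and KRT19 and the brush border gene VIL1 were expressed throughout. MUC2, a goblet cell mucin gene, stayed at 0.4 TPM or less as deposited. Colon epithelial markers summed to 3416 to 3556 scaled TPM at 72 h, against 2622 to 2673 at 0 h. The keratin genes KRT8, KRT18 and KRT19 made up most of this sum. Of 11 kept, 7 were higher and 2 lower, against 26.2% and 25.7% of all genes. CDX2 had 6.42 and 5.54 scaled TPM at 72 h, against 8.18 and 8.14 at 0 h, and TFF3 had 10.2 and 13.9, against 21.2 and 18.0. Leukocyte markers summed to 29.5 to 34.4 at 72 h, against 4.31 to 5.66 at 0 h. That sum came mostly from CD68 and LYZ, both called higher, while PTPRC, CD3E and CD14 stayed at 0.63 TPM or less as deposited. Fibroblast markers summed to 45.3 to 50.8 at 72 h, against 10.2 to 12.1 at 0 h, with LUM, COL3A1 and COL1A1 called higher and COL1A2, DCN and PDGFRB at 1.06 TPM or less as deposited. The part of these shifts in the results below was not tested. In bulk RNA of 1 cell line, a change in how many cells hold a transcript and one in its level per cell cannot be told apart.

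Calls among the 30 genes were few before 72 h and then ran in both directions. At 24 h against 0 h, 0 of the 30 passed the limma test, against 1.08% of all genes called (0.647% higher and 0.437% lower). Even so, 16 of the 30 (53.3%) had both 24 h libraries below both control libraries, against 24.9% of all genes, and 1 gene, ABCA1, had both above, against 24.9%. The median change of the 30 was -0.10, against -0.0024 for all genes. The count was 17 with quantile normalization, against 25% of all genes, 21 with equal library sums, against 35.4%, and 24 on TPM as deposited, against 46.7%. At 48 h, 4 of the 30 were higher (SQLE, NSDHL, INSIG1 and ABCA1) and 0 lower, which is 13.3% called, against 23.4% of all genes (12.1% higher and 11.3% lower). At 72 h, 13 were higher and 4 lower, or 56.7% called, against 51.9% of all genes (26.2% higher and 25.7% lower), so the share of members called at 72 h was near the background. Their changes ran from -0.56 for PMVK to 1.49 for ABCA1. Of the 30, 13 were called at no time, 13 at 1 time and 4 at 2 times against 0 h. The same count was not made over all genes, of which 51.9% were called at 72 h.

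**Figure D1:**
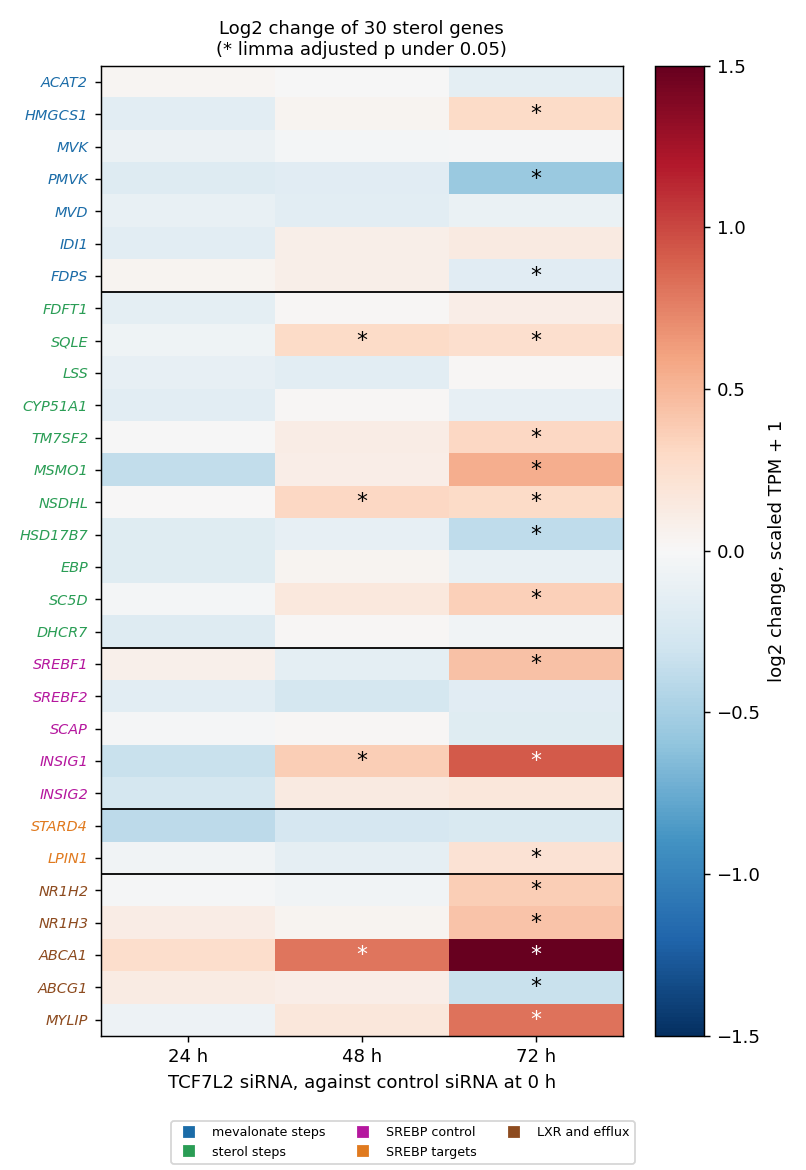
Log2 change of each of the 30 genes (rows, grouped by role) at 24, 48 and 72 h of TCF7L2 siRNA against the control siRNA at 0 h (columns). Colour gives the change of scaled TPM + 1, and stars mark genes with a limma adjusted p under 0.05: 0 at 24 h, 4 at 48 h and 17 at 72 h.

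Of the 7 genes of the mevalonate steps, 1 rose and 2 fell at 72 h, or 42.9% called, against 51.9% of all genes. HMGCS1, the cytosolic HMG-CoA synthase and a classical SREBP target, had 17.5 and 17.5 scaled TPM at 0 h, 16.2 and 15.1 after 24 h, 16.7 and 19.4 after 48 h and lastly 21.4 and 21.8 after 72 h. Both 72 h libraries lay above every other library, and its log2 change was 0.29 ± 0.08 (adjusted p = 0.0128). PMVK, phosphomevalonate kinase, had 12.2 and 14.5 scaled TPM at 0 h, 11.5 and 11.6 after 24 h, 11.3 and 12.1 after 48 h and lastly 8.23 and 9.23 after 72 h. It was lowest in both 72 h libraries, with a fall of 0.56 ± 0.10 (adjusted p = 0.00106). FDPS makes farnesyl diphosphate, the isoprenoid from which squalene is built, and was the most abundant of the 30 at 0 h. FDPS had 95.3 and 92.2 scaled TPM at 72 h, against 107 and 104 at 0 h, a small fall of 0.17 ± 0.05 (adjusted p = 0.0116). ACAT2, the cytosolic thiolase of the first step, MVK, mevalonate kinase, and IDI1, the isopentenyl diphosphate isomerase, did not pass, with log2 changes of -0.14, -0.01 and 0.13. MVD, mevalonate diphosphate decarboxylase, had 22.6 and 13.6 scaled TPM at 72 h, against 17.9 and 19.8 at 0 h, so its 72 h libraries lay on either side of the control libraries (-0.09 ± 0.18). With 1 of its 72 h libraries left out MVD was called against 24 h in opposite directions, at -0.33 without the first and 0.36 without the second. ACAT2, MVK and IDI1 overlap another protein-coding gene in RefSeq, and FDPS has processed pseudogenes, so that reads may be shared.

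The 11 enzymes between farnesyl diphosphate and cholesterol included 5 that rose at 72 h and 1 that fell. That is 54.5% called, near the 51.9% of all genes. MSMO1, the C4-methylsterol oxidase, had the largest change among the 18 synthesis enzymes that was positive. Its levels were 9.38 and 10.5 scaled TPM at 0 h, 6.98 and 7.90 after 24 h, 10.2 and 11.3 after 48 h and lastly 15.3 and 14.6 after 72 h. Both 24 h libraries lay below and both 72 h libraries above the control libraries. The change was 0.55 ± 0.09 at 72 h against 0 h (adjusted p = 0.000965), while 72 h against 24 h gave 0.92 ± 0.09 (adjusted p = 4.52e-05). The upstream window of MSMO1 (chr4:165327419-165327668, plus strand, RefSeq, GRCh38.p14) is shown because it held 4 matches to CCAAT, the letters bound by NF-Y, a known partner of SREBPs. It is written 5′ to 3′ and ends at the base before the annotated transcript start, with each match on either strand in capitals.
MSMO1: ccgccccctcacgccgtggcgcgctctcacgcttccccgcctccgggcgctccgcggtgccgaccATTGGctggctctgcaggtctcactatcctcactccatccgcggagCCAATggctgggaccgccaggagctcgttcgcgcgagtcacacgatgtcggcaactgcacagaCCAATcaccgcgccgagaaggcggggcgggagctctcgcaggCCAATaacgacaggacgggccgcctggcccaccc

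NSDHL, which with HSD17B7 completes the C4 demethylation that MSMO1 begins, had 16.9 and 14.4 scaled TPM at 72 h, against 12.7 and 12.4 at 0 h (0.29 ± 0.09, adjusted p = 0.0216). HSD17B7 went the other way, with 7.63 and 5.96 scaled TPM at 72 h, against 8.72 and 9.46 at 0 h, a fall of 0.38 ± 0.11 (adjusted p = 0.0173). It has a pseudogene copy and is uncertain. The 3 genes of this demethylation complex were thus called in both directions. SQLE, squalene epoxidase, a rate-controlling step, had 18.6 and 18.6 scaled TPM at 0 h, 17.0 and 18.6 after 24 h, 23.7 and 22.2 after 48 h and lastly 22.3 and 22.5 after 72 h. It was higher from 48 h on (0.29 ± 0.07 with adjusted p = 0.0157 at 48 h; 0.25 ± 0.07 with adjusted p = 0.0113 at 72 h). SC5D, lathosterol oxidase, rose by 0.36 ± 0.07 (adjusted p = 0.00297), with 21.7 and 20.6 scaled TPM at 72 h, against 16.9 and 15.6 at 0 h. TM7SF2, a sterol C14 reductase, rose by 0.32 ± 0.06 (adjusted p = 0.00231), with 49.3 and 48.5 scaled TPM at 72 h, against 39.9 and 38.2 at 0 h. In both genes the 72 h libraries stood above all other libraries. FDFT1 (squalene synthase), LSS (lanosterol synthase), CYP51A1 (lanosterol demethylase), EBP (sterol isomerase) and DHCR7 (the last reductase of the pathway) did not pass at any time against 0 h. Their 72 h changes lay between -0.12 for CYP51A1 and 0.09 for FDFT1.

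Of the 5 genes of SREBP control, 2 rose at 72 h and 0 fell, or 40% called, against 51.9% of all genes. INSIG1, the sterol-dependent retention protein that is itself induced by SREBPs, had 11.1 and 11.7 scaled TPM at 0 h, 8.48 and 9.24 after 24 h, 14.7 and 15.5 after 48 h and lastly 22.8 and 22.2 after 72 h. The groups did not overlap at any time, with 24 h lowest and 72 h highest. INSIG1 was not called at 24 h (-0.33 ± 0.07, adjusted p = 0.0671). It rose by 0.37 ± 0.07 at 48 h (adjusted p = 0.00688) and by 0.92 ± 0.07 at 72 h (adjusted p = 1.02e-05). INSIG2, its paralogue, had 8.06 and 9.48 scaled TPM at 0 h, 7.46 and 6.81 after 24 h, 9.15 and 10.3 after 48 h and lastly 10.1 and 9.82 after 72 h. INSIG2 was not called against 0 h at any time (0.17 ± 0.10 at 72 h, adjusted p = 0.183), but was higher at 72 h than at 24 h (0.43 ± 0.10, adjusted p = 0.00565).

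SREBF1 encodes SREBP-1, which favours fatty acid genes, and is also an LXR target. It had 90.9 and 84.3 scaled TPM at 0 h, 96.4 and 88.3 after 24 h, 80.2 and 77.3 after 48 h and lastly 118 and 121 after 72 h. Its main step came between 48 and 72 h (0.60 ± 0.06, adjusted p = 9.68e-05). The 72 h level was 0.44 ± 0.06 above 0 h (adjusted p = 0.000198). SREBF1 overlaps another protein-coding gene in RefSeq. SREBF2 encodes SREBP-2, the main driver of cholesterol synthesis genes, and had 28.4 and 26.5 scaled TPM at 0 h, 26.1 and 22.8 after 24 h, 21.8 and 23.8 after 48 h and lastly 21.7 and 27.2 after 72 h. 1 of its 72 h libraries lay between the control libraries and the other below them (-0.17 ± 0.11, adjusted p = 0.223). SCAP, the escort protein, had 26.5 and 23.7 scaled TPM at 72 h, against 30.6 and 26.8 at 0 h (-0.18 ± 0.09, adjusted p = 0.104).

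The windows of INSIG1 and SREBF2 are shown because INSIG1 had the largest change among the SREBP control genes and SREBF2 the only match among the members to the letters TCACNCCAC, a core form of the sterol regulatory element. INSIG1 (chr7:155297628-155297877, plus strand) held CCAAT at positions -170 to -166 and the E-box CACGTG, which SREBPs can also bind, at -55 to -50 from the start. SREBF2 (chr22:41832855-41833104, plus strand) held TCACNCCAC at -133 to -125 and CCAAT at -106 to -102. Both are GRCh38.p14, 5′ to 3′, with matches on either strand in capitals.
INSIG1: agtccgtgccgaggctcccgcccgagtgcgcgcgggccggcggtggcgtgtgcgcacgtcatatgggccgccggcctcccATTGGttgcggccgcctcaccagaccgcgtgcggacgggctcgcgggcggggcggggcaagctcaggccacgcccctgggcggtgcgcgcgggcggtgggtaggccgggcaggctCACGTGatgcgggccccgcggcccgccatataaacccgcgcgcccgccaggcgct
SREBF2: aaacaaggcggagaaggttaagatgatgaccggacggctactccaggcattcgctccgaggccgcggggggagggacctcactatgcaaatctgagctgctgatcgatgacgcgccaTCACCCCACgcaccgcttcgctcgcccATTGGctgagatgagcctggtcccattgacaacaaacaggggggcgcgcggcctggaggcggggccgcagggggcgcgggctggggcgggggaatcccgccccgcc

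The 2 other SREBP targets were less clear. STARD4, a sterol transfer protein gene, had 16.3 and 17.4 scaled TPM at 0 h, 12.1 and 13.2 after 24 h, 13.9 and 14.0 after 48 h and lastly 16.0 and 12.7 after 72 h. All 6 siRNA libraries lay below the control libraries, but no time passed the test (24 h, -0.39 ± 0.10 with adjusted p = 0.101; 72 h, -0.23 ± 0.10 with adjusted p = 0.0878). LPIN1, which encodes the phosphatidate phosphatase lipin 1, had 11.6 and 10.95 scaled TPM at 72 h, against 9.87 and 9.22 at 0 h (0.22 ± 0.08, adjusted p = 0.0449).

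**Figure D2:**
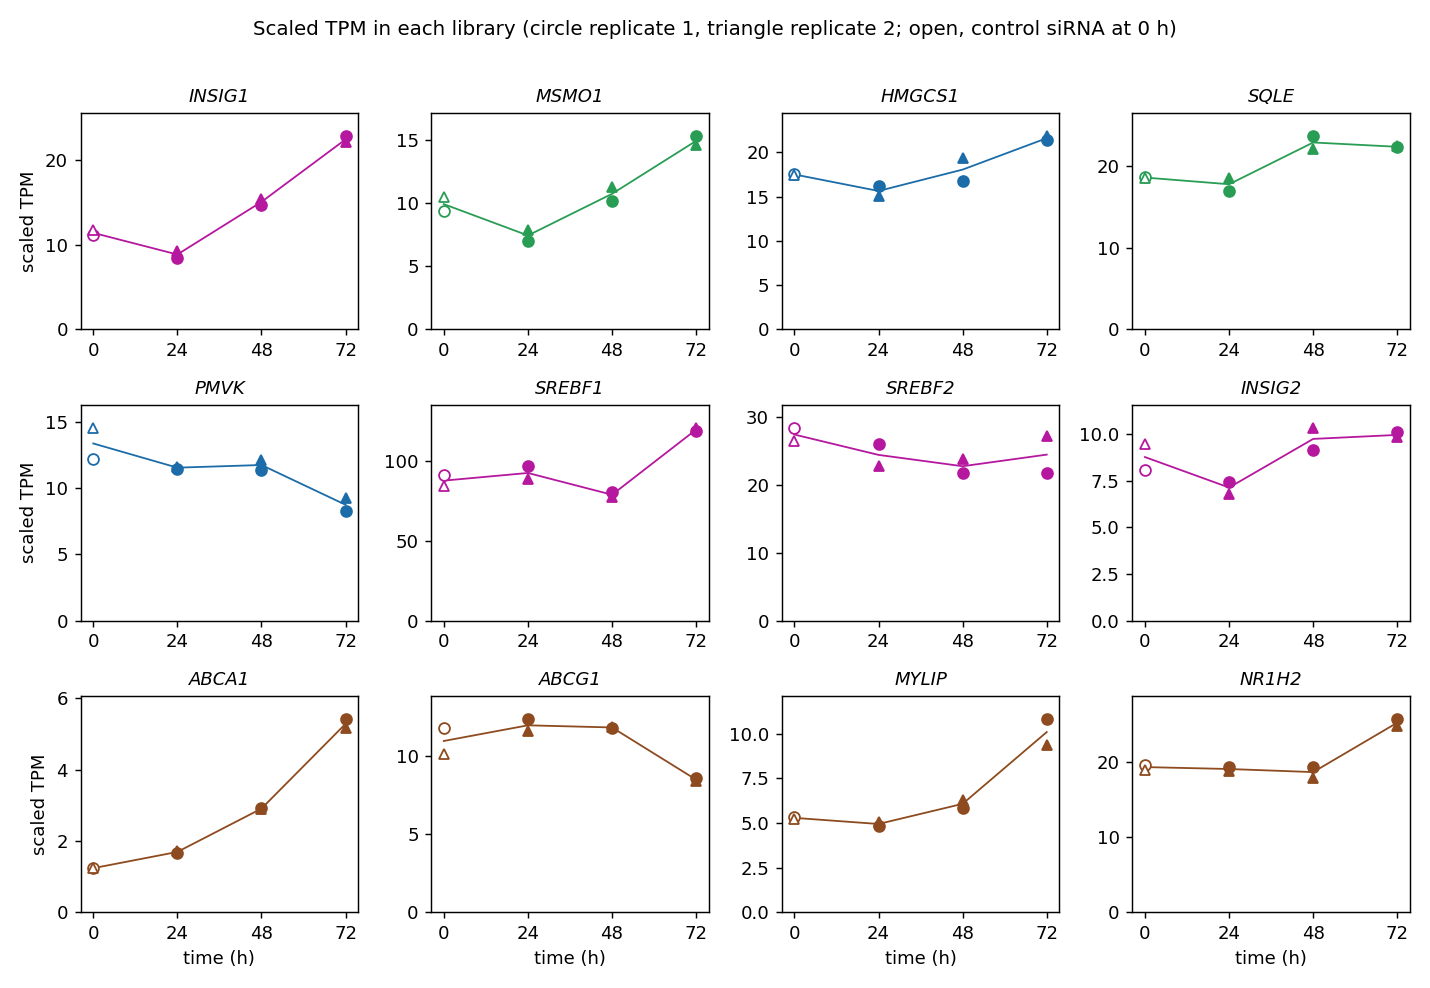
Scaled TPM (vertical axes, from 0) of 12 of the genes in each library at 0, 24, 48 and 72 h, with a line through the group means; open symbols are control siRNA, filled symbols TCF7L2 siRNA. INSIG1 and MSMO1 are lowest at 24 h and highest at 72 h, ABCA1 is higher at each later time, and PMVK and ABCG1 are lowest at 72 h.

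Among the 5 LXR and efflux genes, 4 rose and 1 fell at 72 h, or 100% called, against 51.9% of all genes. ABCA1, the transporter that loads cholesterol onto apolipoprotein A-I, had the lowest level of the 30 at 0 h and the largest change. It had 1.23 and 1.24 scaled TPM at 0 h, 1.67 and 1.71 after 24 h, 2.92 and 2.89 after 48 h and lastly 5.41 and 5.16 after 72 h. The groups stood in order of time without overlap. ABCA1 was not called at 24 h (0.27 ± 0.10, adjusted p = 0.211), and it rose by 0.81 ± 0.10 at 48 h (adjusted p = 0.000726) and, by 72 h, 1.49 ± 0.10 (adjusted p = 2.99e-06). Because its level was low, the 72 h change depended on the pseudocount, at 2.01 with 0.1 and 0.72 with 5, and was called with both. MYLIP, an LXR-induced ubiquitin ligase for lipoprotein receptors, had 5.35 and 5.21 scaled TPM at 0 h, 4.85 and 5.02 after 24 h, 5.83 and 6.31 after 48 h and lastly 10.8 and 9.37 after 72 h. MYLIP rose by 0.82 ± 0.09 at 72 h (adjusted p = 9.31e-05), and by 0.65 ± 0.09 between 48 and 72 h (adjusted p = 0.000784).

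ABCG1, which exports sterol to high-density lipoprotein and is likewise an LXR target, moved the opposite way. It had 11.8 and 10.1 scaled TPM at 0 h, 12.3 and 11.6 after 24 h, 11.8 and 11.8 after 48 h and lastly 8.57 and 8.38 after 72 h. ABCG1 fell by 0.33 ± 0.09 at 72 h against 0 h (adjusted p = 0.0101) and by 0.44 ± 0.09 against 48 h (adjusted p = 0.00388). The receptor genes were called at 72 h and at no earlier time against 0 h. NR1H2, encoding the ubiquitous LXR beta, had 25.7 and 24.8 scaled TPM at 72 h, against 19.7 and 19.0 at 0 h (0.37 ± 0.07, adjusted p = 0.00124). NR1H3, encoding LXR alpha, had 8.62 and 6.52 scaled TPM at 72 h, against 5.82 and 4.89 at 0 h (0.42 ± 0.13, adjusted p = 0.0186). NR1H3 and ABCA1 each overlap a protein-coding neighbour in RefSeq.

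The windows of ABCA1 and MYLIP, the 2 of the LXR and efflux genes that rose most, are shown next. ABCA1 (chr9:104928156-104928405, minus strand) held CACGTG at -147 to -142, CTTTGA, the core bound by TCF/LEF factors, at -72 to -67, and a DR4 element, a direct repeat of the kind LXRs bind (AGGTNA and, after 4 further bases, NGGTCA), at -69 to -54, which overlaps the CTTTGA match. That pattern was written down with this window already in view. MYLIP (chr6:16128836-16129085, plus strand) held CCAAT at -109 to -105 and -68 to -64. Build, direction and capitals are as above.
ABCA1: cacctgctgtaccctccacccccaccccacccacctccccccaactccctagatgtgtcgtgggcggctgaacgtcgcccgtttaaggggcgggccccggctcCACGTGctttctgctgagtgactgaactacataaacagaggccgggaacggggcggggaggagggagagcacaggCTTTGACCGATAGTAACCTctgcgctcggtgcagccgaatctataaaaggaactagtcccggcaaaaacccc
MYLIP: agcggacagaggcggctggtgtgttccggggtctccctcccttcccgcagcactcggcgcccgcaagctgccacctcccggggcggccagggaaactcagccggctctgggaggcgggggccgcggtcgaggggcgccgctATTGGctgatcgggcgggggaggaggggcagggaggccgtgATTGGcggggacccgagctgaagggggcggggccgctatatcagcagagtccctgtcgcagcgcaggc

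The same 250-base windows were available for 26 of the 30 genes and 27305 genes in all. CCAAT on either strand was found in 18 of the 26 (69.2%), against 37% of all genes, and in 13 of 15 synthesis enzymes with a window. CACGTG was in 4 of the 26 (SC5D, SCAP, INSIG1 and ABCA1), or 15.4%, against 7.73% of all genes. TCACNCCAC was in SREBF2 alone, or 3.85%, against 1.09%. CTTTGA was in 2 of the 26, IDI1 and ABCA1, or 7.69%, against 13.5%. The DR4 pattern was in ABCA1 alone among the members and in 0.103% of all genes. It was written with the ABCA1 window in view, so that match was fixed in advance. These shares describe letters in 1 short window per start and say nothing of binding in SW480 cells.

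Differences between siRNA times are taken without the control levels, but the control libraries enter the shared estimate of the spread. At 72 h against 24 h, 14 of the 30 were higher (46.7%) and 3 lower (10%), against 25.4% and 24.8% of all genes (50.2% called either way). The median change of the 30 was 0.26, against 0.01 for all genes. Those higher were HMGCS1, FDFT1, SQLE, TM7SF2, MSMO1, NSDHL, SC5D, SREBF1, INSIG1, INSIG2, LPIN1, NR1H2, ABCA1 and MYLIP, and those lower PMVK, FDPS and ABCG1. Both 24 h libraries lay below and both 72 h libraries above the control libraries in 5 of those higher, HMGCS1, MSMO1, INSIG1, INSIG2 and MYLIP, and 5.78% of all genes met the same rule. HMGCS1 and INSIG2 did not meet it on TPM as deposited. On scaled TPM the opposite order, with a lower call, was seen in 0 of the 30 and in 6.27% of all genes. INSIG1 had the largest of these changes, at 1.25 ± 0.07 (adjusted p = 1.75e-06), followed by ABCA1 at 1.22 ± 0.10 (adjusted p = 1.15e-05). Between 24 and 48 h, 8 were higher and 1, SREBF1 (-0.23 ± 0.06, adjusted p = 0.0323), was lower, or 30% called, against 13.9% of all genes (7.58% higher and 6.34% lower). In that interval 5 of the 11 sterol-step enzymes were called, all higher: SQLE (0.35 ± 0.07), MSMO1 (0.48 ± 0.09), NSDHL (0.31 ± 0.09), EBP (0.22 ± 0.06) and DHCR7 (0.22 ± 0.06). None of the 7 mevalonate genes was called then. Between 48 and 72 h, 10 were higher and 3 lower, or 43.3% called, against 40% of all genes (20.8% higher and 19.2% lower). That interval held all 5 LXR and efflux genes, of which 4 were higher and ABCG1 was lower, but only 2 of the 11 sterol-step enzymes, TM7SF2 (0.21 ± 0.06) and MSMO1 (0.44 ± 0.09).

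**Figure D3:**
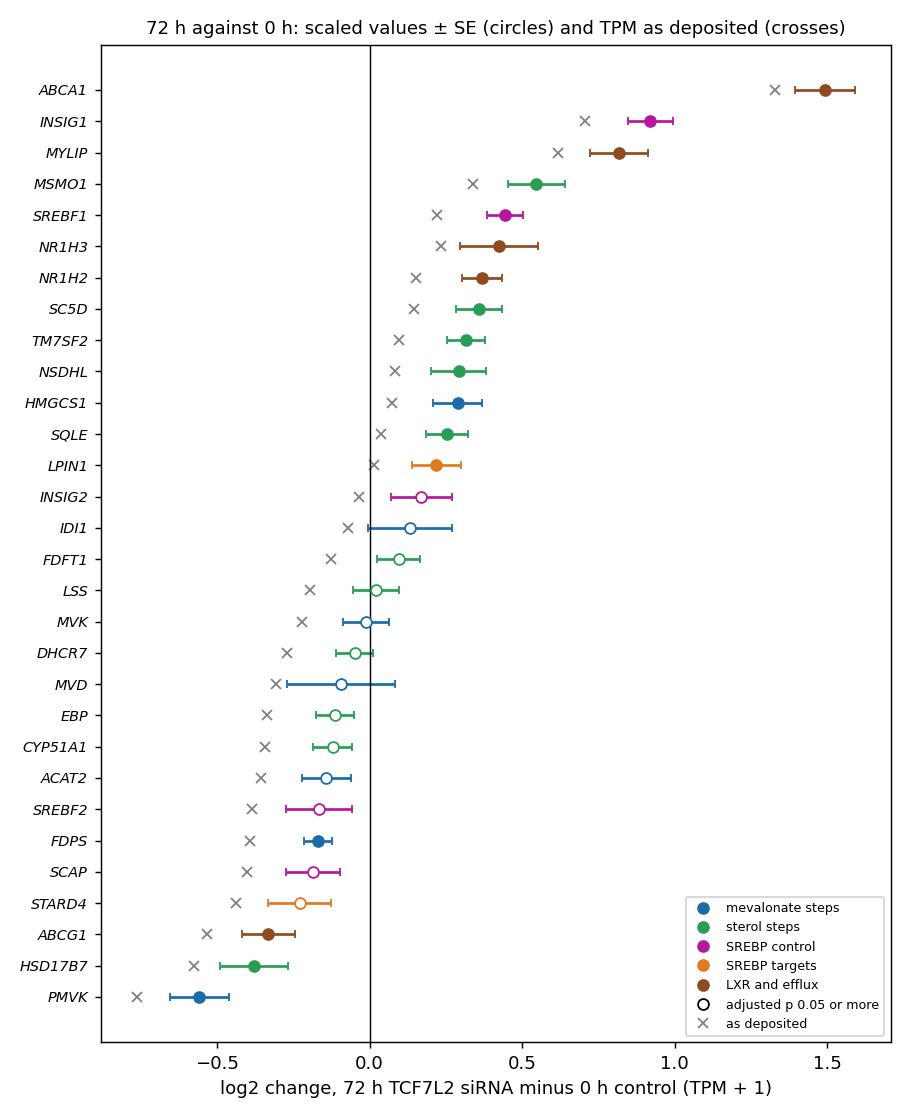
Log2 change at 72 h of TCF7L2 siRNA against 0 h for the 30 genes, on scaled TPM + 1 (circles, ± SE, filled where called, coloured by role) and on TPM + 1 as deposited (crosses). The crosses lie left of every circle, and ABCA1, INSIG1 and MYLIP have the 3 largest positive changes on both.

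Ratios of 2 genes within a library do not depend on how libraries are scaled, and they are given without a test, since 2 libraries against 2 cannot give an exact p under 0.05. ABCA1 to ABCG1 was 0.104 and 0.123 at 0 h, 0.136 and 0.148 after 24 h, 0.248 and 0.244 after 48 h and lastly 0.631 and 0.616 after 72 h. The ratio stood higher at each time in both libraries. INSIG1 to INSIG2 was 1.38 and 1.23 at 0 h, 1.14 and 1.36 after 24 h, 1.61 and 1.498 after 48 h and lastly 2.26 and 2.26 after 72 h. 1 of the 24 h values of this ratio lay between the 0 h values and the other below them. SREBF1 to SREBF2 was 3.20 and 3.19 at 0 h, 3.69 and 3.88 after 24 h, 3.68 and 3.25 after 48 h and lastly 5.46 and 4.42 after 72 h. MSMO1 to PMVK was 0.77 and 0.721 at 0 h, 0.609 and 0.682 after 24 h, 0.896 and 0.935 after 48 h and lastly 1.86 and 1.58 after 72 h.

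**Figure D4:**
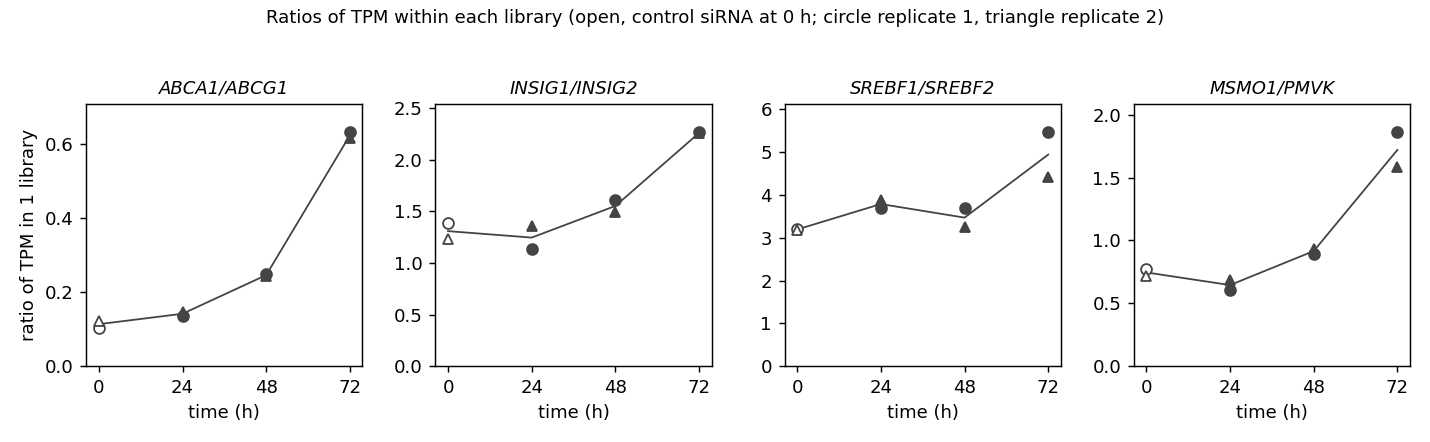
Ratio of the TPM of 2 genes within each library (vertical axes, from 0) at 0, 24, 48 and 72 h, for 4 pairs, with a line through the group means and open symbols for control siRNA. ABCA1 to ABCG1 stands highest at 72 h, at 0.631 and 0.616, against 0.104 and 0.123 at 0 h.

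Genes next to the pathway were read from lists made for this comparison at 72 h against 0 h. Of all genes, 26.2% were higher and 25.7% lower then (51.9% called), and no list was tested against those shares. Of 12 genes of the isoprenoid branch, which draws on farnesyl diphosphate for prenylation, ubiquinone and dolichol, 1 was higher and 6 were lower (median -0.17). ICMT, the methyltransferase for prenylated proteins, fell by 0.52 ± 0.05 and GGPS1, geranylgeranyl diphosphate synthase, by 0.44 ± 0.05. PGGT1B, a prenyltransferase subunit, fell by 0.58 ± 0.10 and NUS1, a dolichol synthesis gene, by 0.47 ± 0.08. Of 11 genes of SREBP processing and sterol-regulated degradation, 3 were higher and 6 lower. FBXW7, which marks active SREBPs for degradation, rose by 0.77 ± 0.07 and the ligase gene RNF139 by 0.57 ± 0.09. The ubiquitin-conjugating enzyme gene UBE2G2 fell by 0.30 ± 0.05. Of 12 sterol transport and storage genes, 7 were higher and 2 lower (median 0.38). NPC2, a lysosomal cholesterol carrier, had 48.2 ± 6.66 scaled TPM at 72 h, against 21.7 ± 0.605 at 0 h (SD, n = 2 each; log2 change 1.11 ± 0.09, adjusted p = 1.32e-05). GRAMD1B, a membrane contact sterol carrier, rose by 1.05 ± 0.11, TMEM97 by 0.63 ± 0.08 and LBR, a sterol C14 reductase like TM7SF2, by 0.45 ± 0.07.

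Among 7 LXR partners and targets, 2 were higher and 1 lower at 72 h, against 26.2% and 25.7% of all genes. SMPDL3A, an LXR target, rose by 0.62 ± 0.11 and the coactivator gene NCOA1 by 0.36 ± 0.08. The corepressor gene NCOR1 did not pass (-0.17 ± 0.09, adjusted p = 0.13). Of 10 kept genes of SREBP-1 and ChREBP lipogenesis, 1 was higher and 5 were lower (26.2% and 25.7% of all genes) although SREBF1 rose. SCD, the stearoyl-CoA desaturase gene, had 57.9 ± 1.38 scaled TPM at 72 h, against 111 ± 0.292 at 0 h (SD, n = 2 each; fall of 0.93 ± 0.04, adjusted p = 4.35e-07). MLXIPL, the ChREBP gene, fell by 1.26 ± 0.09 and the malic enzyme gene ME1 by 0.47 ± 0.09, and the acetyl-CoA synthetase gene ACSS2 rose by 0.40 ± 0.06.

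The 72 h calls differed in how firmly they held. The fit to TPM as deposited had a median SE of 0.16 over all genes, against 0.09 on scaled TPM. A call can thus be lost on TPM as deposited with little change in size. On TPM as deposited 3 of the 30 were higher and 7 lower, against 10.5% and 31.2% of all genes, so the excess of higher calls was not seen there. The median change of the 30 there was -0.10, against -0.19 for all genes. On scaled TPM it was 0.11, against 0.01. Of the 17 calls, 7 were also made on TPM as deposited with the same sign: INSIG1, ABCA1 and MYLIP higher, and PMVK, FDPS, HSD17B7 and ABCG1 lower. There SREBF2 (-0.38), SCAP (-0.40) and STARD4 (-0.44) were lower too, and IDI1, FDFT1, LSS and INSIG2, uncalled on both, changed sign. On TPM as deposited without the second 72 h library, the 1 with the lowest sum, 10 were higher and 4 lower, against 20.1% and 25.6% of all genes. The calls of ABCA1, INSIG1, MYLIP, MSMO1, SREBF1, NR1H2, SC5D, TM7SF2 and PMVK held without any 1 of the 8 libraries. LPIN1 was lost without any 1 of them, with log2 changes of 0.17 to 0.26. Without the first control library HMGCS1 (0.29), SQLE (0.25), NSDHL (0.30), FDPS (-0.15) and ABCG1 (-0.23) were lost. Without the second control library HMGCS1 (0.29), SQLE (0.25), NSDHL (0.28), HSD17B7 (-0.33) and NR1H3 (0.32) were lost. NSDHL (0.18) and NR1H3 (0.25) were lost without the first 72 h library, and HMGCS1 (0.28) and HSD17B7 (-0.23) without the second.

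At 48 h against 0 h the call of ABCA1 alone held on TPM as deposited, where 4.61% of all genes were higher and 3.14% lower, and it also held without any 1 library. INSIG1 (0.37 ± 0.16), SQLE (0.28 ± 0.16) and NSDHL (0.30 ± 0.16) kept nearly the same size on TPM as deposited, but with larger SEs. On scaled TPM the INSIG1 call was lost without the first control library (0.34) or the second 48 h library (0.34). SQLE was lost without the first (0.29) or second (0.28) control library or the first 48 h library (0.24). NSDHL was lost without the first (0.32) or second (0.30) control library, the second 24 h library (0.31), or the first (0.23) or second (0.39) 48 h library. At 72 h against 24 h, MSMO1, INSIG1, ABCA1 and MYLIP stayed higher and ABCG1 lower on TPM as deposited and without any 1 library. PMVK was lost without the second 24 h library (-0.36) or the first 72 h library (-0.29), as was FDFT1 (0.21 and 0.16). NSDHL and LPIN1 were lost without the first 24 h library (0.30 and 0.29), the second (0.28 and 0.26) or the first 72 h library (0.18 and 0.24). On TPM as deposited 4 were higher and 2 lower in that comparison, against 12% and 21.4% of all genes. Between 24 and 48 h, 3 were higher and 0 lower on TPM as deposited (MSMO1, INSIG1 and ABCA1), against 4.3% and 0.715% of all genes, and the INSIG1 call alone held without any 1 library. Without the first 24 h library INSIG1 was the 1 call left, with ABCA1 at 0.53, SQLE at 0.29, MSMO1 at 0.40 and SREBF1 at -0.16. NSDHL, EBP and DHCR7 were lost without any 1 of the first or second control, 24 h or 48 h libraries, and INSIG2 without any 1 of the 24 h or 48 h libraries (0.32 to 0.48). SQLE (0.30) and SREBF1 (-0.25) were lost without the first 48 h library, and MSMO1 (0.40) and SREBF1 (-0.20) without the second. Between 48 and 72 h, 2 were higher (ABCA1 and MYLIP) and 5 lower (PMVK, FDPS, HSD17B7, SCAP and ABCG1) on TPM as deposited, against 4.96% and 22% of all genes. TM7SF2 was lost there without any 1 of the 48 h or 72 h libraries (0.19 to 0.22). HMGCS1 was lost without the first 48 h library (0.15) or the first (0.26) or second (0.23) 72 h library. PMVK was lost without the second 48 h (-0.34) or first 72 h library (-0.32), and NR1H3 without the first or second 24 h library (0.39 and 0.39), 48 h library (0.41 and 0.37) or the first 72 h library (0.21).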

How the data were processed

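Total RNA of SW480 cells was sequenced in 8 libraries, 2 in each of 4 groups; the protocol text speaks of more replicates than the 2 a group listed. The deposited values are TPM per gene made by the authors; the submitters' processing notes name Trimmomatic, FastQC, STAR, SAMtools, Picard, RSEM and hg19, with no roles. TPM keeps no read depth, so depth is unknown, and no source used here states a strand setting. TPM was divided by a median-ratio factor per library, filtered at 1 TPM in 2 libraries, and log2-transformed with a pseudocount of 1. One limma 3.58.1 fit (R 4.3.3, mean-variance trend, two-sided, 4 residual degrees of freedom) gave all 6 comparisons, with Benjamini-Hochberg adjustment over 11894 genes. A fold on the log2(TPM + 1) scale understates the change of low genes. All 30 genes are named, with values for every call at 72 h against 0 h and for some of the calls in the other comparisons. From each neighbouring list, up to 4 genes with the smallest p at 72 h against 0 h are named. Results for a few genes of those lists are not reported here. The members and lists were chosen with earlier results of these data known. The alternatives were the pseudocount, filter, scaling, moderation, threshold, replicate block and leaving out each library. The fit was tested on simulated data.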

Additional observations from a re-analysis of the deposited data

Results flagged for a closer look

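For 5 genes, both 24 h libraries lay below and both 72 h libraries above both 0 h libraries, and the test of 72 h against 24 h passed (limma, adjusted p under 0.05), which held for 5.78% of all 11894 genes. The log2 changes between those times were 1.25 for INSIG1, 0.92 for MSMO1, 0.9 for MYLIP, 0.44 for HMGCS1 and 0.43 for INSIG2. None of the 5 was called at 24 h against 0 h, and INSIG2 was not called at 72 h against 0 h. These values are on scaled TPM. On TPM as deposited INSIG1, MSMO1 and MYLIP met the same rule. HMGCS1 and INSIG2 there overlapped the control libraries at 72 h and were not called against 24 h (limma, adjusted p = 0.111 and 0.123).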

How the results depend on the processing

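The fit to TPM as deposited had a larger median SE (0.16, against 0.09 on scaled TPM). On TPM as deposited the numbers of members called were 1 at 48 h and 10 at 72 h against 0 h, 3 at 48 h against 24 h, 7 at 72 h against 48 h and 6 at 72 h against 24 h. The shares of all genes called there are given above by direction. The median member changes there were -0.19 at 24 h and -0.10 at 72 h against 0 h, 0.21 at 48 h against 24 h, -0.15 at 72 h against 48 h and 0.14 at 72 h against 24 h. The medians of all genes there were -0.089, -0.19, 0.070, -0.17 and -0.11 in the same order. With every library set to the same sum, 1 member was called at 24 h, and the median at 48 h against 0 h was -0.037. At an adjusted p of 0.01 the calls were 2 at 48 h and 9 at 72 h against 0 h, and 2 at 48 h against 24 h; that last comparison gave 4 with no filter and 5 with no mean-variance trend. A pseudocount of 5 put the median at 72 h against 24 h at 0.20, and leaving the second 72 h library out of TPM as deposited, chosen after seeing the data, put it at 0.37. Leaving out each library in turn gave 0 to 1 calls at 24 h, 1 to 6 at 48 h and 11 to 17 at 72 h against 0 h, 1 to 9 at 48 h against 24 h, 10 to 13 at 72 h against 48 h and 13 to 20 at 72 h against 24 h. The medians ranged over -0.10 to -0.083, -0.0197 to 0.046, 0.0538 to 0.191, 0.0715 to 0.131, 7e-04 to 0.11 and 0.18 to 0.32 in the same order. TM7SF2 changed sign at 72 h against 48 h on TPM as deposited (-0.0041), and MVD, uncalled with all libraries, was at -0.29 at 72 h against 48 h and -0.33 against 24 h without the first 72 h library, and at 0.399 and 0.358 without the second; the cause was not tested. Replicate numbers did not pair the libraries (correlations of deviations -0.085 to 0.107). With the number as a replicate block, 0, 4, 16, 9, 14 and 17 members were called, with LPIN1 lost at 72 h against 0 h (adjusted p = 0.0565) and EBP gained at 72 h against 48 h (-0.16, adjusted p = 0.0275, limma). The number of all genes called also changed with the setting, at 24 h against 0 h from 129 in the main fit to 18 with no filter. Counts given here without a share of all genes thus describe the members alone.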
